A study of Mus musculus with 24 samples.

Results

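The genes described here are 10 genes of systemic iron handling measured in mouse liver: the hepcidin genes Hamp and Hamp2, the ligand gene Bmp6, the BMP target genes Id1 and Smad7, the transferrin receptor genes Tfrc and Tfr2, the transferrin gene Trf, the iron exporter gene Slc40a1 and the protease gene Tmprss6. They were chosen by name for their role in iron homeostasis, by a rule that uses no measured value, though with earlier results of these data known. The array carried 16 probes for them, and all 10 genes had at least 1 probe among the 37325 gene names printed on it. The brightest probe of each gene over the 24 arrays was taken for the gene, and the second probe, where there was one, served as a check. All 10 genes were among the 21495 genes that passed the filter on dim probes, and all 10 chosen probes were well above background on every array.

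The series holds 24 liver RNA samples from male mice aged 12 weeks, each hybridised to 1 one-colour Agilent array, in 4 groups of 6 mice. LKO mice (p110aLKO in the labels) carried a floxed gene for p110α, the catalytic subunit of phosphoinositide 3-kinase downstream of the insulin receptor, together with 1 copy of an albumin-Cre transgene that deletes it in hepatocytes. LWT mice (p110aLWT) carried the same floxed gene without Cre, so that no group had an unmodified gene. Food was withheld from the fasted mice for 24 h, fed mice ate freely, and all were killed at zeitgeber time 16, in the dark phase. The design asks how fasting changes each gene and whether hepatocyte p110α alters its level or its response.

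The share of probes well above background ran from 54.7% to 63.0% over the arrays, and no spot was saturated. The Pik3ca probe, for the gene of p110α, did not show a lower level in LKO livers: LKO against LWT was 0.58 on the log2 scale in fed mice (SE 0.113, adjusted p = 0.00147) and -0.02 in fasted mice (adjusted p = 0.93). Where this probe lies relative to the deleted exons was not examined, so it does not check the genotype. The second principal component held 13.6% of the variance. On it LWT livers lay between 15.2 and 27.0 and fed LKO livers between -29.0 and -19.1. LKO fasted replicates 1 and 2 lay at -35.1 and -31.3 and the other 4 LKO fasted livers between -2.92 and -1.40. Leaving out both gave 4 instead of 6 of the 10 genes changed by fasting in LKO, and the counts of the other comparisons stayed at 7, 0, 2 and 0. In these bulk samples fewer cells of a type and less RNA per cell cannot be told apart. Each array is a different mouse, and the p-values measure the spread between mice.

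Hepcidin is a peptide hormone that hepatocytes secrete. It binds ferroportin, the only known iron exporter of mammalian cells and the product of Slc40a1, and drives its degradation, so that iron is held in macrophages, gut cells and hepatocytes. Its gene is switched on mainly by BMP ligands from liver endothelium through SMAD proteins, with Id1 and Smad7 induced by the same signal, and also by interleukin 6 through STAT3. TFR2 and HFE sense iron-loaded transferrin and raise hepcidin, and TMPRSS6 lowers it by cutting the BMP co-receptor hemojuvelin. Mice carry a pair of neighbouring hepcidin genes, of which Hamp makes the iron-regulating hormone, and the product of Hamp2 is not known to act on iron in the same way.

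The Hamp and Hamp2 probes are shown because these closely related genes went opposite ways in fasted LWT livers, and a probe that bound both transcripts would blur that difference. In the ungapped alignment, in which the Hamp probe starts 1 base before the Hamp2 probe, 42 of 59 bases were identical (71.2%), 17 differed and the longest shared run was 14 bases. The capitals mark the bases that differ. The array annotation places the Hamp probe at chr7:31727490-31727549 and the Hamp2 probe at chr7:31707520-31707579, both on the minus strand of mm9.

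Hamp probe: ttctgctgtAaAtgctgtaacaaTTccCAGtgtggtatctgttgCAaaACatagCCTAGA

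Hamp2 probe: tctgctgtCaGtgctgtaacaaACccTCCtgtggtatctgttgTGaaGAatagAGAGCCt

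The 250 bases before the annotated start of each hepcidin gene are shown next, from RefSeq on GRCm38.p6, since they hold short motifs known from the BMP and interleukin 6 responses of hepcidin promoters. Hamp lies at chr7:30944030-30944279 and Hamp2 at chr7:30924182-30924431, both read from the minus strand. Capitals mark every match to GGCGCC, the core of a BMP-responsive element, and to TTCNNNGAA, the pattern that STAT proteins bind. Each motif reads the same on both strands, and the matches do not overlap.

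Hamp promoter: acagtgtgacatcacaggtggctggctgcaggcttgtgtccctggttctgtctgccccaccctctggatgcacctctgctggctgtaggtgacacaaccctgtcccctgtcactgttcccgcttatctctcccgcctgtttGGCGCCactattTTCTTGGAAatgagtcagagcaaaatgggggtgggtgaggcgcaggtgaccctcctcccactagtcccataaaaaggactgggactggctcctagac

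Hamp2 promoter: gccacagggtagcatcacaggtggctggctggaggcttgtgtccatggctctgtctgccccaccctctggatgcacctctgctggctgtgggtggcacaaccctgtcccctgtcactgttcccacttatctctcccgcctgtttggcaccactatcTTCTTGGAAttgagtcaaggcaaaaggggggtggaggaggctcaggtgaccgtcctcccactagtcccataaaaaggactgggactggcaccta

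The windows aligned over 247 bases, of which 227 (91.9%) were identical. GGCGCC began 109 bases before the start of Hamp, and the aligned bases of Hamp2, 106 bases before its start, carried the substitution G4A, counted from the first base of the motif. TTCTTGGAA was present in both, 97 bases before the start in Hamp and 94 in Hamp2. Over 32851 promoter windows of that length, 9.59% held GGCGCC and 7.02% held TTCNNNGAA. Of the other genes with a promoter sequence, Tfrc held GGCGCC 89 bases before 1 of its starts, and the windows of Bmp6 and Tfr2 held neither motif.

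Fasting raised Hamp in LWT livers, lowered Hamp2 in both genotypes by over 5-fold, and raised the BMP targets Id1 and Smad7 in both, while Bmp6 itself did not pass the test. It lowered Tfrc and raised Tfr2 in both genotypes. At an adjusted p of at most 0.05 in the limma fit, 7 of the 10 genes changed in LWT mice, 5 upward and 2 downward, where 41.5% of all tested genes changed (19.9% upward and 21.7% downward). In LKO mice 6 of the 10 changed, 3 in each direction, against 41.5% of all genes (19.7% upward and 21.8% downward). A fold over 1.5 was reached as well by 5 of the 10 in LWT, against 10% of all genes, and by 3 of the 10 in LKO, against 12.8%. Fed and fasted arrays did not overlap for 4 of the 10 genes in LWT (21.6% of all genes) and for 2 of the 10 in LKO (22.1%). The median log2 fold change of the 10 genes was 0.23 in LWT and 0.11 in LKO, beside -0.01 and -0.02 over all tested genes. No gene of the 10 passed the test of a different fasting response between genotypes, where 7.97% of all genes did (4.11% upward, 3.86% downward, and 3.09% with a fold over 1.5).

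**Figure D1:**
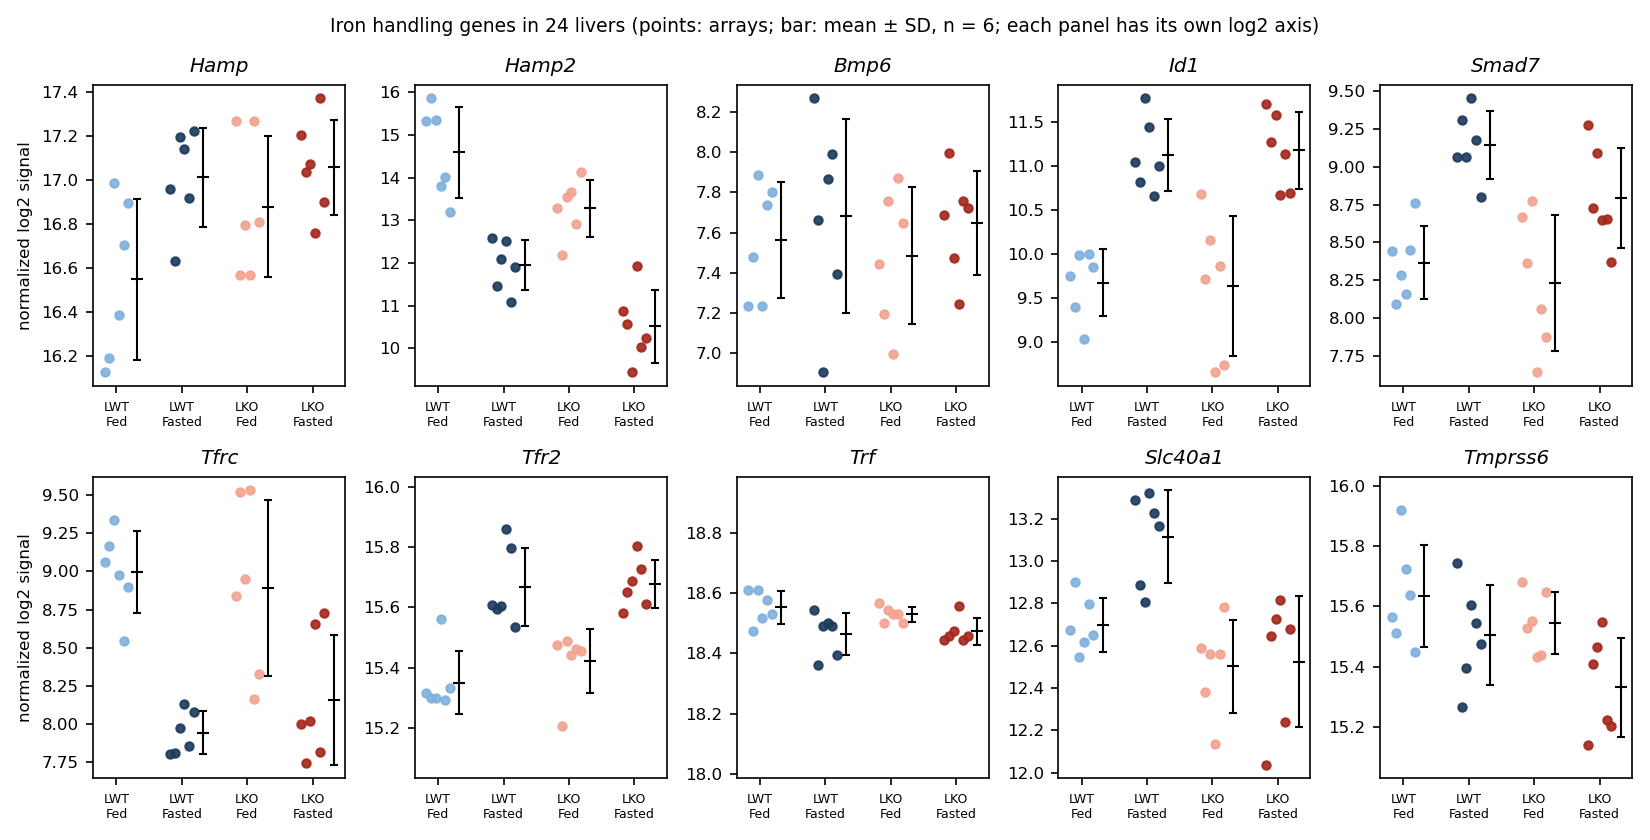
Normalized log2 signal of the 10 iron handling genes in each of 24 livers, by group, with one panel and one axis per gene; points are arrays and bars are means ± SD (n = 6). Hamp2 fell from a mean of 14.59 to 11.94 with fasting in LWT and from 13.29 to 10.51 in LKO, and Id1 and Tfrc moved in opposite directions.

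Hamp, the gene of the hormone, rose with fasting in LWT livers. In LWT its normalized log2 signal had a lowest, median and highest value of 16.13, 16.54 and 16.99 in the fed group and of 16.63, 17.05 and 17.22 in the fasted group. In LKO livers the same 3 values were 16.57, 16.80 and 17.27 in fed and 16.76, 17.05 and 17.37 in fasted mice. In LWT 3 fasted livers lay above every fed liver and the other 3 within the fed range, and the LKO groups overlapped almost throughout. The fitted change with fasting was 0.59 on the log2 scale in LWT (SE 0.156, 1.51-fold, adjusted p = 0.00376) and 0.22 in LKO (SE 0.172, 95% interval -0.13 to 0.58, adjusted p = 0.318). The genotypes' responses differed by -0.37 (95% interval -0.85 to 0.11, adjusted p = 0.358), so a smaller response in LKO was not shown.

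The rise of Hamp in LWT was uneven between slides. It was 0.08 on slide 1, 0.92 on slide 2 and 0.39 on slide 3, each from 2 livers per group. Without the weights that limma gives to arrays it was 0.46 (adjusted p = 0.027), the same as the difference of the plain means, 16.55 ± 0.37 and 17.01 ± 0.22 (SD, n = 6 each). Quantile normalization sets a level by rank, and Hamp ranked between 143 and 447 of 32197 probes, while with scaling to the 75th percentile, which keeps the measured spacing, the rise was 0.69.

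Hamp2 showed the widest range of the 10 genes. Its normalized log2 signal had a lowest, median and highest value of 13.19, 14.67 and 15.86 in fed LWT livers and of 11.09, 11.99 and 12.59 in fasted ones. In LKO the values were 12.19, 13.41 and 14.12 in fed and 9.43, 10.41 and 11.93 in fasted livers. Every fasted liver lay below every fed liver of its genotype. Fasting lowered Hamp2 by 5.59-fold in LWT (log2 fold change -2.48, SE 0.426, adjusted p = 6.74e-05) and by 8.70-fold in LKO (-3.12, SE 0.471, adjusted p = 1.41e-05). The fall was seen on all 3 slides, between -3.25 and -1.69 in LWT and between -3.37 and -1.90 in LKO. The responses of the genotypes were not distinguishable, with a difference of -0.64 and a 95% interval of -1.96 to 0.68 (adjusted p = 0.594).

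Bmp6, the main iron-dependent ligand upstream of hepcidin, did not pass in either genotype. In LWT its log2 signal ran from 7.24 to 7.89 (median 7.61) in fed and from 6.90 to 8.27 (median 7.76) in fasted livers. In LKO it ran from 6.99 to 7.87 (median 7.55) in fed and from 7.25 to 7.99 (median 7.71) in fasted livers. All 4 groups overlapped. The fasting change was 0.14 in LWT (95% interval -0.26 to 0.54, adjusted p = 0.595) and 0.22 in LKO (-0.23 to 0.66, adjusted p = 0.45), so that the upper bounds reached 0.54 and 0.66 on the log2 scale. Bmp6 is made mostly by sinusoidal endothelium, and of 10 endothelial markers 3 fell in fasted LWT livers, beside 21.7% of all genes. In fasted LKO livers 1 rose and 1 fell, beside 19.7% and 21.8% of all genes. The summed marker signal on the log2 scale had a median of 15.09 in fed and 14.98 in fasted LWT livers and of 14.90 in fed and 14.71 in fasted LKO livers. Its part in the Bmp6 value was not tested.

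Id1, an inhibitor of DNA-binding proteins and a direct BMP and SMAD target, rose about as much in both genotypes. In LWT the lowest, median and highest log2 signals were 9.04, 9.80 and 10.003 in fed and 10.66, 11.02 and 11.77 in fasted livers. In LKO they were 8.66, 9.79 and 10.68 in fed and 10.67, 11.21 and 11.70 in fasted livers. The LWT groups were separate, and 1 fed LKO liver reached the lowest fasted LKO liver. The rise was 1.54 in LWT (SE 0.281, 2.91-fold, adjusted p = 0.000133) and 1.498 in LKO (SE 0.311, 2.82-fold, adjusted p = 0.0005), with a difference of -0.04 and a wide 95% interval of -0.91 to 0.83.

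Smad7, the inhibitory SMAD that BMP signalling induces as its own brake, also rose. Its log2 signal was 8.10 to 8.76 (median 8.37) in fed and 8.80 to 9.45 (median 9.12) in fasted LWT livers, with no overlap. The LKO groups overlapped, at 7.64 to 8.77 (median 8.21) in fed and 8.37 to 9.27 (median 8.69) in fasted livers. Fasting raised it by 0.74 in LWT (SE 0.185, 1.67-fold, adjusted p = 0.00253) and by 0.54 in LKO (SE 0.204, 1.45-fold, adjusted p = 0.0389). The second Smad7 probe rose by 0.41 in LWT (adjusted p = 0.0225) and by 0.44 in LKO (adjusted p = 0.0278). In LKO the call rested on few livers: without LKO fasted replicates 1 and 2 the rise was 0.39 (adjusted p = 0.185), and it missed the threshold in 7 of 24 fits that left out 1 array.

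Among the receptors, Tfrc and Tfr2 went opposite ways. Tfrc encodes the receptor that takes up iron-loaded transferrin, and its transcript is known to be stabilised when cells are short of iron. In LWT its log2 signal was 8.54 to 9.34 (median 9.02) in fed and 7.80 to 8.13 (median 7.91) in fasted livers, with no overlap. In LKO it was 8.16 to 9.53 (median 8.89) in fed and 7.74 to 8.72 (median 8.01) in fasted livers, where 2 fasted livers lay within the fed range. Tfrc fell by 0.96 on the log2 scale in LWT (SE 0.19, 1.95-fold, adjusted p = 0.000289) and by 0.82 in LKO (SE 0.21, 1.77-fold, adjusted p = 0.00317). The second probe gave -0.45 in LWT (adjusted p = 0.0192) and -0.40 in LKO, which missed the threshold (adjusted p = 0.0555). Tfrc is also rich in young red cells. Of 7 tested erythroid markers, 1 fell in fasted LWT and 2 in fasted LKO livers, beside 21.7% and 21.8% of all genes. The summed erythroid signal had a log2 median of 18.35 in fed and 18.14 in fasted LWT and of 17.80 in fed and 18.36 in fasted LKO livers. Its part in the fall of Tfrc was not tested.

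Tfr2, the hepatocyte iron sensor, rose by a small amount. Its log2 signal was 15.29 to 15.56 (median 15.31) in fed and 15.53 to 15.86 (median 15.61) in fasted LWT livers. In LKO it was 15.21 to 15.49 (median 15.46) in fed and 15.58 to 15.80 (median 15.67) in fasted livers. The LKO groups were separate, and in LWT 1 fed liver lay above the lowest fasted liver. The rise was 0.32 in LWT (SE 0.0602, 1.25-fold, adjusted p = 0.000186) and 0.24 in LKO (SE 0.0665, 1.18-fold, adjusted p = 0.00586). On the 3 slides the rise lay between 0.27 and 0.38 in LWT and between 0.13 and 0.40 in LKO. The second probe gave 0.37 and 0.33, both past the threshold.

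Trf, the plasma iron carrier, had a signal that ranked between 20 and 38 of 32197 probes. Its log2 signal lay between 18.36 and 18.61 in all 24 livers. The fitted change with fasting was -0.08 in LWT (95% interval -0.16 to 0.01, adjusted p = 0.128) and -0.07 in LKO (-0.17 to 0.02, adjusted p = 0.211). The second probe fell by 0.16 in LWT (adjusted p = 0.0169) and by 0.18 in LKO (adjusted p = 0.0124), and the first gave -0.26 in LKO with scaling to the 75th percentile (adjusted p = 0.006). A decrease of Trf in fasting was thus small and depended on the probe and the scaling.

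Slc40a1, the ferroportin gene, rose with fasting in LWT. The log2 signal was 12.54 to 12.90 (median 12.66) in fed and 12.80 to 13.32 (median 13.20) in fasted LWT livers, with a narrow overlap. In LKO it stayed at 12.14 to 12.78 (median 12.56) in fed and 12.04 to 12.81 (median 12.66) in fasted livers. The change was 0.43 in LWT (SE 0.12, 1.35-fold, adjusted p = 0.00616) and 0.01 in LKO (95% interval -0.27 to 0.28, adjusted p = 0.977). The responses differed by -0.42 (95% interval -0.80 to -0.05, unadjusted p = 0.027), which missed the threshold over all genes (adjusted p = 0.156). The second probe gave 0.22 in LWT (adjusted p = 0.0705), -0.09 in LKO and a difference of -0.31 (adjusted p = 0.202).

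Tmprss6, the protease that restrains hepcidin, fell slightly in LKO. Its log2 signal was 15.45 to 15.92 (median 15.60) in fed and 15.26 to 15.74 (median 15.51) in fasted LWT livers. In LKO it was 15.43 to 15.68 (median 15.54) in fed and 15.14 to 15.55 (median 15.32) in fasted livers. The groups overlapped in both genotypes. The change was -0.08 in LWT (adjusted p = 0.476) and -0.24 in LKO (SE 0.0864, 1.18-fold, adjusted p = 0.0306). The second probe gave -0.07 in LWT (adjusted p = 0.615) and -0.48 in LKO (SE 0.104, adjusted p = 0.000799). The difference between genotypes was -0.16 (adjusted p = 0.429) by the first and -0.41 (adjusted p = 0.0769) by the second probe. Without LKO fasted replicates 1 and 2 the first probe gave -0.24 (adjusted p = 0.0644), and it missed the threshold in 5 of 24 fits that left out 1 array.

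**Figure D2:**
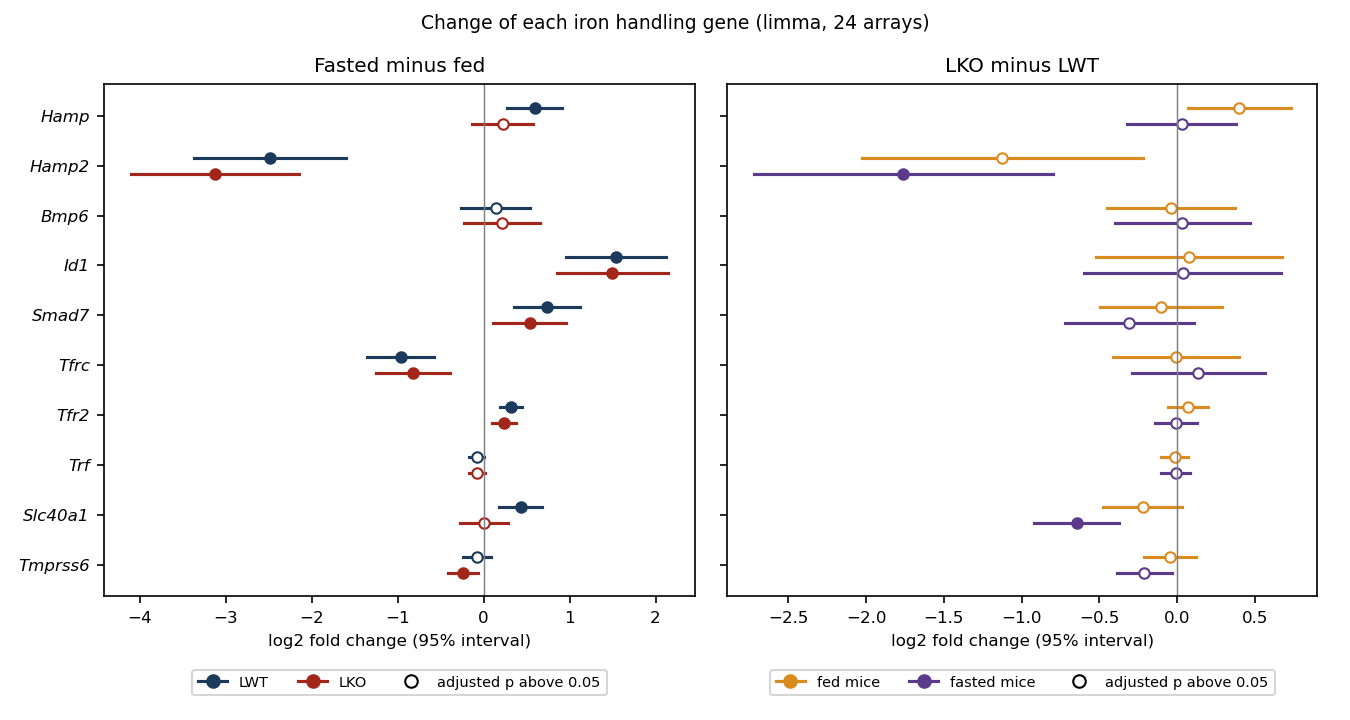
Fitted log2 fold changes (points) with 95% intervals (lines) for each of the 10 genes, fasted minus fed in each genotype at left and LKO minus LWT in each feeding state at right; filled points passed an adjusted p of 0.05 (limma, 24 arrays). Fasting moved 7 genes in LWT and 6 in LKO, whereas between genotypes only Hamp2 and Slc40a1, in fasted mice, passed.

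Between genotypes 2 of the 10 genes differed, both lower in LKO and both in fasted mice: Hamp2 and Slc40a1. In that comparison 20.6% of all tested genes passed (10% upward, 10.6% downward), and no gene of the 10 separated the genotypes without overlap (8.67% of all genes did). Both genes also exceeded a fold of 1.5, where 4.06% of all genes did. In fed mice none of the 10 genes passed, where 16.4% of all genes did (8.81% upward, 7.6% downward, and 3.83% with a fold over 1.5) and 8.63% did not overlap between genotypes, although Hamp and Hamp2 each had an unadjusted p below 0.05. The median log2 difference of the 10 genes was -0.03 in fed and -0.01 in fasted mice, beside -0.01 and -0.00 over all genes. The fasted LKO and LWT livers also serve in the fasting comparisons, so these values are not independent of those above.

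Hamp2 was lower in fasted LKO than in fasted LWT livers by 3.39-fold (log2 difference -1.76, SE 0.463, adjusted p = 0.00935). The 2 groups overlapped, since 1 LKO liver at 11.93 lay within the LWT range of 11.09 to 12.59. The difference was -0.42, -2.61 and -1.25 on slides 1 to 3, and it was -2.03 (adjusted p = 0.0104) without LKO fasted replicates 1 and 2. In fed mice the difference was -1.12 (95% interval -2.03 to -0.22, adjusted p = 0.0848), from -1.53 and -2.50 on slides 1 and 2 and 0.10 on slide 3. With scaling to the 75th percentile the fed difference passed (-1.22, adjusted p = 0.046). Hamp in fed mice was 0.40 higher in LKO (95% interval 0.07 to 0.73, adjusted p = 0.0925), with 1.11 on slide 2 against -0.16 and 0.04 on slides 1 and 3. In fasted mice Hamp differed by 0.03 (95% interval -0.32 to 0.38).

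Slc40a1 was lower in fasted LKO livers by 1.57-fold (log2 difference -0.65, SE 0.131, adjusted p = 0.00126). The highest LKO liver, at 12.81, just reached the lowest LWT liver, at 12.80. The difference was -0.30, -0.56 and -0.92 on slides 1 to 3, -0.59 without LKO fasted replicates 1 and 2 (adjusted p = 0.00694), and -0.34 by the second probe (adjusted p = 0.0226). In fed mice it was -0.22 (95% interval -0.48 to 0.03, adjusted p = 0.24). Ferroportin is abundant in Kupffer cells as well as hepatocytes. Of 10 Kupffer cell markers none passed between fasted LKO and LWT livers, where 20.6% of all genes did. Their median log2 difference was 0.01, and their summed log2 signal ran from 14.62 to 15.86 in fasted LWT and from 14.57 to 16.61 in fasted LKO livers. Of all genes 10.6% were lower in fasted LKO livers. Of 5 cholangiocyte markers 2 were lower there, with a summed log2 signal of 10.75 to 11.10 in LWT and 8.99 to 10.20 in LKO. Of 7 erythroid markers 2 were lower in fasted LKO livers, while the list had a median log2 difference of 0.38 and its summed log2 signal ran from 17.11 to 18.91 in LWT and from 17.89 to 19.07 in LKO. The part of Kupffer cells, cholangiocytes and erythroid cells in the Slc40a1 and Hamp2 values was not tested.

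The other 8 genes did not pass between genotypes in fasted mice. Tmprss6 came nearest at -0.21 (95% interval -0.39 to -0.03, adjusted p = 0.0883). It passed with the processed signal (-0.22, adjusted p = 0.0362), without LKO fasted replicate 3 (-0.26, adjusted p = 0.0492) and by its second probe (-0.29, adjusted p = 0.0474). Smad7 differed by -0.31 (95% interval -0.72 to 0.11) and Id1 by 0.04 (-0.60 to 0.67). These intervals are wide. The intervals for Tfr2 (-0.14 to 0.13) and Trf (-0.10 to 0.08) were the narrowest.

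**Figure D3:**
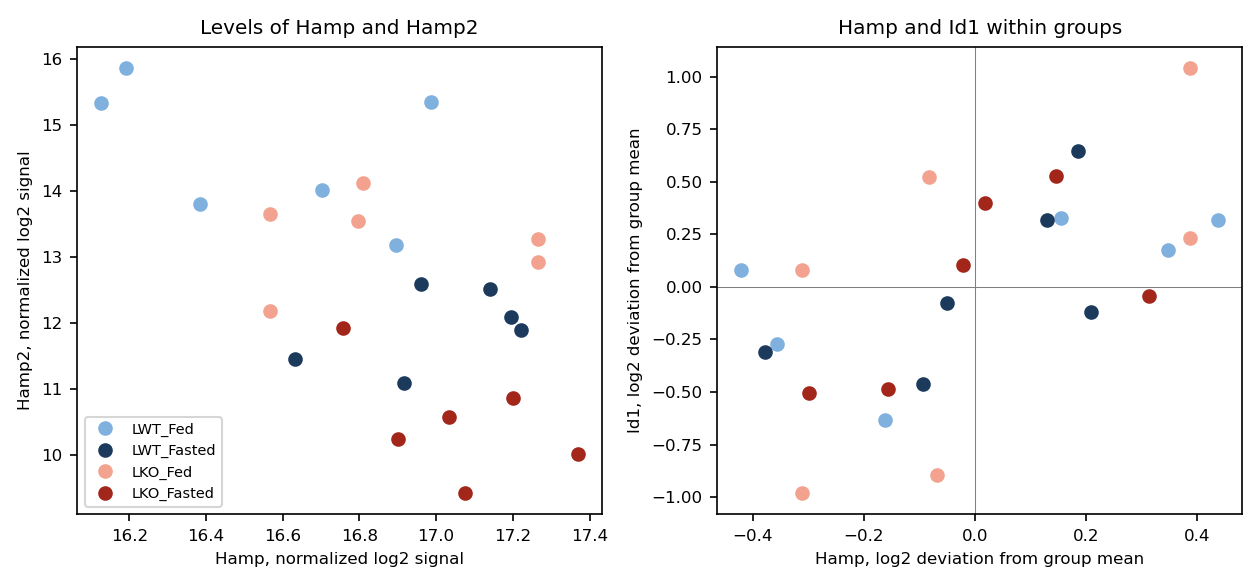
Left, normalized log2 signal of Hamp2 against Hamp in each of 24 livers; right, Id1 against Hamp as log2 deviations from the mean of each group; colours give the groups. Fasted livers lie low for Hamp2 and toward the upper range of Hamp, and within groups Id1 tended to be high where Hamp was high (Pearson r 0.60 to 0.65 in each of the 4 groups, none past its exact test).

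Within the groups, livers with more Hamp tended to have more Id1. Pearson's r was 0.60 in fed LWT, 0.65 in fasted LWT, 0.62 in fed LKO and 0.63 in fasted LKO livers (n = 6 each), with Spearman's rho of 0.60, 0.60, 0.60 and 0.66. None passed the exact permutation test, two-sided, with p between 0.16 and 0.226 (adjusted p = 0.467 over the 24 correlations computed, 6 gene pairs in 4 groups). Without the 2 livers farthest from the median of Hamp, r was 0.75, 0.97, 0.17 and 0.95. The direction was thus alike in the 4 groups, and in fed LKO livers the relation rested on 2 livers. Id1 and Smad7 went together more closely in LKO, with r of 0.90 in fed (exact p = 0.025) and 0.91 in fasted livers (exact p = 0.0153), than in LWT, with r of 0.62 and 0.06, but no pair passed after adjustment (lowest adjusted p = 0.3), and whether the genotypes differ in this was not tested. Hamp and Bmp6 gave r of 0.90 in fed LWT (exact p = 0.0375), -0.43 in fasted LWT, 0.64 in fed LKO and 0.50 in fasted LKO livers, and Hamp and Hamp2 gave r between -0.55 and 0.49. Hamp and Smad7 gave r of 0.48 in fed LWT, -0.43 in fasted LWT, 0.31 in fed LKO and 0.40 in fasted LKO livers. For Bmp6 and Id1 the values were 0.74, -0.60, 0.37 and 0.27 in the same order. Without the 2 livers farthest from the median the sign turned for Hamp and Bmp6 (-0.20) and Hamp and Hamp2 (0.30) in fasted LKO. The sign also turned for Id1 and Smad7 in fed and fasted LWT livers (-0.42 and -0.63). The same held for Hamp and Smad7 in fasted LWT (0.25) and Bmp6 and Id1 in fed and fasted LKO livers (-0.29 and -0.54). Values of one array share its RNA and its scaling.

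Over all 24 arrays, with each group's mean removed, Id1 ranked 73 of 19313 genes by its correlation with Hamp (r = 0.588), ahead of Bmp6 (0.355, rank 1468) and Smad7 (0.252, rank 3116), while Hamp2 (-0.227) and Tfrc (-0.420) were negative. The 5 genes most like Hamp by this measure were Nr5a1 (r = 0.859), Trpv6 (0.762), Arhgap33 (0.745) and 2 unannotated transcripts (0.766 and 0.758), all well above background on the 24 arrays. Trpv6 and Arhgap33 had low mean log2 signals, 6.43 and 6.23. Slide was not removed from these deviations. These are descriptions over 24 livers on which no test was run.

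Other genes of the pathway were taken from lists of hepcidin regulators and iron and haem genes. Of 21 tested genes in the BMP and SMAD list, 9 rose and 3 fell with fasting in LWT and 7 rose and 2 fell in LKO, with a median log2 fold change of 0.19 and 0.11 beside -0.01 and -0.02 over all genes. For this list and those that follow, the shares of all tested genes to set beside the fasting counts are 19.9% upward and 21.7% downward in LWT and 19.7% and 21.8% in LKO. Smad9, which encodes the BMP-responsive SMAD8, rose by 1.47 in LWT (adjusted p = 1.78e-07) and by 1.499 in LKO (adjusted p = 4.44e-07). Atoh8, a BMP-induced transcription factor that binds the hepcidin promoter, rose by 1.22 in LWT (adjusted p = 6.52e-07) and by 0.65 in LKO (adjusted p = 0.00217). Id2, a relative of Id1, rose by 0.48 in LWT (adjusted p = 0.0226) and by 1.25 in LKO (adjusted p = 8.9e-06). No gene of this list passed the test of a different fasting response between genotypes, so unequal rises here were not shown to differ. Fgl1, a hepatocyte protein that binds BMP6 and restrains hepcidin, rose by 0.92 in LWT and 0.95 in LKO. It was also the gene of this list with the largest genotype difference, 1.24 higher in fed (adjusted p = 0.000161) and 1.28 higher in fasted LKO livers (adjusted p = 9.1e-05), without overlap between genotypes. Acvr2b, an activin and BMP receptor, was higher in LKO as well, by 0.75 in fed and 0.57 in fasted mice. Between genotypes 4 genes of the list were higher and none lower in fed LKO mice, and 3 were higher and 1 lower in fasted LKO mice, so that 4 of 21 passed in each, close to the 16.4% and 20.6% of all genes. Bmp2, the other main endothelial ligand, Hjv, which encodes hemojuvelin, and Hfe passed in no comparison of the main fit. Hjv passed under 2 of 35 other settings for fasting in LWT and 4 of 35 between genotypes in fed mice. Hfe passed under 5 of 35 for fasting in LKO and 2 of 35 between genotypes in fed mice.

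Of 9 genes of the interleukin 6, CREBH and PGC-1α routes to hepcidin, 5 rose and none fell with fasting in LWT, and 3 rose and 1 fell in LKO, beside 41.5% of all genes called in each genotype. Socs3, the feedback inhibitor of STAT3 signalling, rose by 1.67 in LWT (adjusted p = 3.05e-06) and by 1.97 in LKO (adjusted p = 1.12e-06). Il6ra, the interleukin 6 receptor, rose by 1.22 in LWT (adjusted p = 2.7e-06) and changed by 0.03 in LKO (adjusted p = 0.921), and its response differed between genotypes by -1.20 (adjusted p = 0.00428). In fasted mice Il6ra was 0.89 lower in LKO (adjusted p = 0.00101), whereas Socs3 was 0.92 higher (adjusted p = 0.00908, a call lost without LKO fasted replicates 1 and 2, at 0.80 and adjusted p = 0.0505) and Stat3 0.53 higher (adjusted p = 0.000178). Stat3 was higher in fed LKO mice as well, by 0.42 to 0.49 under 11 other settings, past the threshold in each. Creb3l3, which encodes CREBH, rose by 0.59 in LWT (adjusted p = 1.4e-08) and by 0.94 in LKO (adjusted p = 4.74e-11). In fed mice Creb3l3 was lower in LKO (-0.23 to -0.15 under 11 other settings), a call lost with the processed signal and without array weights. Ppargc1a, the fasting-induced coactivator PGC-1α, rose by 0.99 in LWT (adjusted p = 0.0016) and gave 0.56 in LKO (adjusted p = 0.089). Only Il6ra and Creb3l3 of this list passed the test of a different fasting response between genotypes.

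The iron storage and sensing list had 8 tested genes, of which 2 rose and 3 fell in fasted LWT and 2 rose and 1 fell in fasted LKO mice, beside 41.5% of all genes called in each genotype. Ncoa4, the receptor that delivers ferritin for breakdown, rose by 0.66 in LWT (adjusted p = 7.62e-06) and by 0.29 in LKO (adjusted p = 0.0306), and in fasted mice it was 0.41 lower in LKO (adjusted p = 0.00626). The call in LKO was lost without LKO fasted replicates 1 and 2 (adjusted p = 0.0635), and that between genotypes with only the compared groups in the fit (adjusted p = 0.088). Aco1, the iron regulatory protein IRP1, fell by 0.29 in LWT and by 0.50 in LKO, and Ireb2, which encodes IRP2, rose by 0.41 in LKO (adjusted p = 0.000177) and gave 0.16 in LWT (adjusted p = 0.0612). No storage or sensing gene passed the test of a different fasting response between genotypes. The ferritin genes moved little. Fth1 was 0.15 lower in fasted LWT livers (adjusted p = 0.0321), a call that held under 25 of 35 other settings and was -0.04 with scaling to the 75th percentile. Ftl1 passed in no comparison of the main fit, and under 1 of 35 other settings for fasting in LKO.

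Among 18 tested transport genes 6 rose and 3 fell in fasted LWT and 3 rose and 2 fell in fasted LKO mice, beside 41.5% of all genes called in each genotype. Flvcr2, a membrane transporter first described for haem, rose by 2.49 in LWT (adjusted p = 3.03e-10) and by 2.40 in LKO (adjusted p = 1.7e-09). It was also higher in LKO, by 1.11 in fed (adjusted p = 0.000306) and 1.03 in fasted mice (adjusted p = 0.000524). Steap4, a metalloreductase, fell by 0.96 in LWT and by 1.12 in LKO. Cd163, the macrophage receptor for haemoglobin and haptoglobin, rose by 0.85 in LWT (adjusted p = 0.000529) and gave 0.14 in LKO (adjusted p = 0.611), while of 10 Kupffer cell markers 2 fell and none rose in LWT and none passed in LKO. Slc39a14, an importer of iron not bound to transferrin, rose by 0.47 and Cp, the ferroxidase ceruloplasmin, by 0.29 in LWT (adjusted p = 0.000232 and 0.0365), the last a call lost without array weights (adjusted p = 0.183), without the filter (adjusted p = 0.104) and in 9 of 24 fits that left out 1 array. In LKO they gave 0.24 (adjusted p = 0.0599) and 0.04 (adjusted p = 0.844). Of the transport genes only Lrp1 passed the test of a different fasting response between genotypes. In fed LKO mice 3 transport genes were higher and none lower, among them Steap2 (0.37) and Hpx (0.31), and in fasted LKO mice 4 were higher and none lower, beside 16.4% and 20.6% of all genes called. The Hpx call was lost without array weights (0.23, adjusted p = 0.154), without the filter on dim probes (adjusted p = 0.0517) and without LWT fed replicate 5 (adjusted p = 0.07), and that of Steap2 without the same liver (adjusted p = 0.0506).

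Of 16 tested genes of haem synthesis and breakdown 3 rose and 5 fell in fasted LWT, and 2 rose and 7 fell in fasted LKO mice, beside 41.5% of all genes called in each genotype. Alas1, the rate-limiting enzyme of haem synthesis in liver, rose by 0.88 in LWT (adjusted p = 0.00362) and by 1.12 in LKO (adjusted p = 0.00109). In fasted mice its difference between genotypes was 0.70 (adjusted p = 0.0517). Under 35 other settings that difference was 0.60 to 0.75 and passed in 13. Cpox, a later enzyme of the pathway, rose by 0.62 in LWT (adjusted p = 0.000121) and by 0.68 in LKO (adjusted p = 0.000139). Ppox, which follows it, fell by 0.71 in LWT (adjusted p = 4.24e-08) and by 0.57 in LKO (adjusted p = 2.84e-06), and the mitochondrial transporter gene Abcb10 fell by 0.82 in LWT and 1.11 in LKO. Hmox1, the inducible haem oxygenase, passed in no comparison. Hmox2, the constitutive form, was 0.36 lower in fasted LKO than in fasted LWT livers (adjusted p = 0.000441).

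Of 13 genes of mitochondrial iron and iron-sulfur clusters 3 rose and 5 fell in LWT and 2 rose and 5 fell in LKO with fasting, beside 41.5% of all genes called in each genotype. Slc25a37, the mitochondrial iron importer mitoferrin, fell by 0.72 in LWT (adjusted p = 8.95e-05) and by 0.97 in LKO (adjusted p = 8.93e-06). Fdx1, a ferredoxin, fell by 0.50 in LWT and by 0.92 in LKO, a difference of -0.42 between genotypes that passed the test (adjusted p = 0.00301), and its reductase gene Fdxr fell by 0.41 and 0.58. In LKO, Glrx5, a glutaredoxin of cluster assembly, was 0.45 lower in fed (adjusted p = 0.000263) and 0.34 lower in fasted mice (adjusted p = 0.00277), and the scaffold gene Iscu was 0.25 lower in fasted mice (adjusted p = 0.00163).

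**Figure D4:**
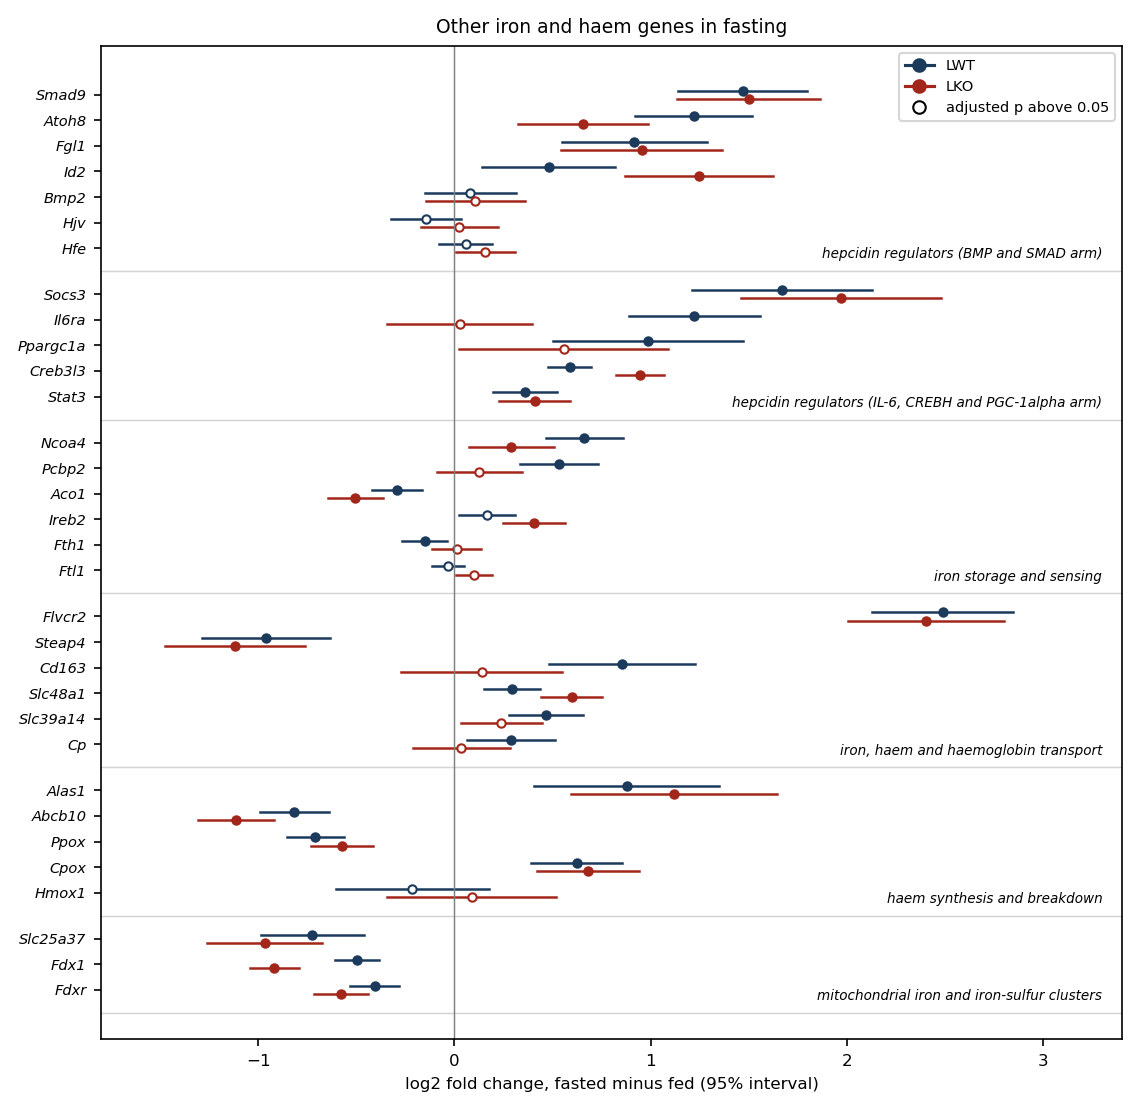
Fitted log2 fold changes, fasted minus fed, with 95% intervals for other genes of hepcidin regulation, iron storage, iron and haem transport, haem synthesis and mitochondrial iron, in LWT (blue) and LKO (red); filled points passed an adjusted p of 0.05 (limma, 24 arrays). Flvcr2 rose most, by 2.49 in LWT and 2.40 in LKO, and Abcb10, Steap4 and Slc25a37 fell in both genotypes.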

How the data were processed

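Liver RNA of 24 mice was hybridised to Agilent SurePrint mouse arrays and read with Feature Extraction 10.10.1.1. The deposited intensity values are each spot's median signal, which the authors left without normalization in these files. Further deposited columns were used as alternatives: the processed signal, an intensity after the scanner software's background correction, and the authors' series matrix of normalized log2 values, made after their own filter, batch correction and quantile normalization. Following the study's methods, log2 median signals were quantile normalized and fitted with limma 3.58.1 (R 4.3.3) with array weights. The authors corrected for the washing bath, which the labels do not give, and slide was a fixed term here in its place. Control spots and outlier spots were dropped, and the filter kept the 32197 probes that the scanner software found clearly brighter than background in 5 or more livers of any group. P-values were adjusted by Benjamini-Hochberg over all of these probes, and an adjusted p of at most 0.05 was the threshold. Each of 3 slides held 2 arrays of every group. For each gene the probe with the highest mean log2 median signal was used. The number of arrays, 6 a group, limits precision. The fit was tested on simulated data.

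From each list, up to 3 genes with the largest change past the threshold were named per comparison, or the 1 largest where none passed, with Bmp2, Hjv, Hfe, Fth1, Ftl1, Cp, Slc39a14, Hmox1, Alas1 and Pik3ca always considered, genes well above background in 5 or more livers of both groups only, and the 5 genes most like Hamp. The 10 genes and the lists were chosen with earlier results of these data known. Marker lists of hepatocytes, Kupffer cells, endothelium, stellate cells, erythroid cells, cholangiocytes and neutrophils were scored likewise. Of 8 hepatocyte markers 1 rose and 1 fell in fasted LWT, 1 fell in fasted LKO, and the summed log2 signal lay between 20.85 and 21.00 on all arrays. Of 8 stellate cell markers 2 rose and 1 fell in fasted LWT, and 2 rose and 2 fell in fasted LKO. Of 4 tested neutrophil markers 1 fell in each genotype. The shares of all genes to set beside these counts are 19.9% upward and 21.7% downward in LWT and 19.7% and 21.8% in LKO. Alternatives were another scaling, processed or normexp-corrected signal, the series matrix, other filters, no weights, no slide term, a replicate block in place of slide, only the compared groups, the second probe, and leaving out arrays.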

Additional observations from a re-analysis of the deposited data

Results flagged for a closer look

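In 3 of the 40 sets of 6 livers (10 genes in 4 groups) one liver lay far from the rest by Dixon's ratio of its gap to the group's range, where chance gives about 1 in 20. They were Tfr2 in fed LWT livers (ratio 0.85, a high liver at 15.56), Tfr2 in fed LKO livers (0.827, a low liver at 15.21) and Trf in fasted LKO livers (0.736, a high liver at 18.56). The interaction test found a fasting response that differed between genotypes for 7.97% of all tested genes and for none of the 10. By list, none of the 21 BMP and SMAD genes and none of the 8 storage genes passed. Of the other lists, 1 of 18 transport, 1 of 16 haem and 1 of 13 mitochondrial genes passed. Among the 9 genes of the interleukin 6 list 1 passed in each direction. The 6 other genes given next were named partly because they passed a test, so their number cannot be set against that share. The differences of log2 fold change, LKO minus LWT, were -1.20 for Il6ra (adjusted p = 0.00428), 0.36 for Creb3l3 (adjusted p = 0.00838), -0.51 for Lrp1 (adjusted p = 0.0354), -0.35 for Hmox2 (adjusted p = 0.0191), -0.42 for Fdx1 (adjusted p = 0.00301) and -0.60 for Pik3ca (adjusted p = 0.0299). Those of Creb3l3, Lrp1 and Hmox2 did not pass without array weights (0.27, -0.35 and -0.29). Those of Lrp1 and Hmox2 did not pass without the filter either (adjusted p = 0.132 and 0.0541), that of Lrp1 was lost in 14 and that of Hmox2 in 2 of 24 fits that left out 1 array, and that of Hmox2 did not pass without LKO fasted replicates 1 and 2 (-0.27).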

How the results depend on the processing

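The number of the 10 genes past the threshold stayed within 5 to 7 for fasting in LWT under the 12 alternatives other than leaving out an array. For fasting in LKO it fell to 3 when a fold over 1.5 was also asked. For LKO against LWT in fed mice it went from 0 to 1 with scaling to the 75th percentile, to 1 without the slide term and to 2 with the replicate block, which took the place of slide in that fit. Leaving out each array in turn gave 7 for fasting in LWT, 4 to 6 for fasting in LKO, 0 to 2 for the fed and 2 to 3 for the fasted genotype comparison, and 0 for the interaction; the count of 2 came without LWT fed replicate 6. The replicate numbers did not pair the livers: median correlations of same-numbered arrays lay between -0.055 and -0.013. With the replicate block in place of slide Hamp and Hamp2 passed in fed mice (0.45 and -1.28, adjusted p = 0.019 and 0.014), and the count over all genes there went from 3528 to 4957. Smad7 in fasted LKO livers missed the threshold with the processed signal (0.59), normexp (0.49) and only the compared groups (0.54), and Tmprss6 missed it there with the 75th percentile (-0.19), no filter (-0.23) and no weights (-0.22); the cause was not tested.

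None of the values that changed sign passed the threshold. Between genotypes in fasted mice these were Hamp (-0.022 with the 75th percentile, -0.015 with the processed signal), Bmp6 (-0.033 without weights, -0.0068 without slide, -0.0054 without LKO fasted replicates 1 and 2), Id1 (-0.068 with the replicate block, -0.19 without both replicates), Tfr2 (0.010 without weights, 0.016 with the block, 0.012 without both) and Trf (0.0092 without weights). In fed mice these were Id1 (-0.035 without weights), Tfrc (0.0042 with the block, 0.18 by the second probe), Trf (0.16 and 0.19 with the 75th percentile and processed signal) and Tmprss6 (0.0041 with the processed signal, 0.12 by the second probe). For fasting they were Slc40a1 in LKO (-0.030 with the processed signal, -0.0099 with normexp, -0.0096 with probes above background on all arrays, -5.74e-05 with only the compared groups, -0.086 by the second probe) and Tmprss6 in LWT (0.0026 with the 75th percentile). For the interaction they were Id1 (0.063, 0.014, 0.039, 0.087 and 0.069 with the 75th percentile, processed signal, no filter, no weights and no slide), Smad7 (0.027, second probe) and Trf (-0.22, -0.27, -0.016 and -0.026 with the 75th percentile, processed signal, normexp and second probe).

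Leaving out 1 array turned the sign within -0.034 to 0.086 for Hamp, -0.19 to 0.22 for Bmp6, -0.13 to 0.16 for Id1, -0.038 to 0.027 for Tfr2 and -0.033 to 0.0058 for Trf between genotypes in fasted mice. In fed mice the ranges were -0.15 to 0.092 for Bmp6, -0.17 to 0.29 for Id1, -0.24 to 0.066 for Smad7, -0.14 to 0.11 for Tfrc and -0.033 to 0.0037 for Trf. For fasting they were -0.031 to 0.35 for Bmp6 in LWT and -0.069 to 0.086 for Slc40a1 in LKO, and for the interaction -0.16 to 0.27 for Bmp6, -0.25 to 0.22 for Id1 and -0.018 to 0.022 for Trf.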
